A study of Mus musculus with 4 samples.

Results

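The Iroquois homeobox family was examined through every probe of the array whose annotated gene symbol was Irx1, Irx2, Irx3, Irx4, Irx5 or Irx6. All 6 genes were represented, by 9 of the 29922 probes. Irx1, Irx4, Irx3 and Irx5 had 1 probe each, Irx2 had 2 and Irx6 had 3. In the mouse these genes lie in a pair of genomic clusters of 3 genes, with Irx1, Irx2 and Irx4 on chromosome 13 (4 probes) and Irx3, Irx5 and Irx6 on chromosome 8 (5 probes), and the results follow these clusters.

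RNA came from whole mandibles of C57BL/6 mouse embryos at E11.5, with 2 wild-type control arrays and 2 arrays of conditional Bmp4 overexpression (Bmp4 OE), in which doxycycline was given for 24 hours to induce Bmp4, a secreted bone morphogenetic protein (BMP). The driver of the transgene is not given in the sources used here, nor is it said whether controls received doxycycline, or whether replicate arrays stand for different embryos. The drug, the genotype and Bmp4 therefore cannot be told apart, and every p-value reflects the scatter among these arrays alone, which may be of technical origin. Levels are normalised log2 intensities. A difference is the mean of the Bmp4 OE arrays minus the mean of the control arrays, so 1 unit is a 2-fold change.

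Iroquois proteins are transcription factors of the TALE superclass of homeodomain proteins, which carry a loop of 3 extra amino acids in the homeodomain, and they bear a conserved Iro box. They often act as repressors and set boundaries of territories in the nervous system, heart, limb and pharyngeal region. Genes within a cluster are known to share long-range enhancers, and Irx1 with Irx2, like Irx3 with Irx5, are often expressed in overlapping patterns. In the craniofacial region, human IRX5 mutations cause Hamamy syndrome, a disorder of the face, heart and bone.

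The RefSeq promoter table of GRCm38.p6 had an entry for 3 of the 6 genes, with 1 transcript start for each. For Irx3 this is the outermost start of the RefSeq gene span. Those used for Irx2 and Irx4 lie inside longer RefSeq gene spans, so their windows precede the start in the table and not the outermost start of the gene. These are shown so that the sequence before the start of Irx2 and Irx4, the chromosome 13 genes with an entry, can be set beside that of Irx3 on chromosome 8. Each run is 250 bases long, 5′ to 3′ on the strand of the gene, and capitals mark a match to GGCGCC, the core of GC-rich elements bound by BMP-responsive SMAD proteins.
Irx2, chr13:72628570-72628819, plus strand: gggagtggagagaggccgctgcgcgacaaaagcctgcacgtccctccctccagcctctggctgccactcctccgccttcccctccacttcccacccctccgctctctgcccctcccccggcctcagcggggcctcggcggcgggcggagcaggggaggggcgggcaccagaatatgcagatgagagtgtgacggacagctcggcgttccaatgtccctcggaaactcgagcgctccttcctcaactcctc
Irx4, chr13:73260247-73260496, plus strand: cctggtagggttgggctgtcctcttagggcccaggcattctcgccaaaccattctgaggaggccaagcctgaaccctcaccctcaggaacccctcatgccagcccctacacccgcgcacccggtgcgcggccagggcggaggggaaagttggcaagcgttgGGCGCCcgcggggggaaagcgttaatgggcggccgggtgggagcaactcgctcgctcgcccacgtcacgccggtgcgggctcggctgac
Irx3, chr8:91801655-91801904, minus strand: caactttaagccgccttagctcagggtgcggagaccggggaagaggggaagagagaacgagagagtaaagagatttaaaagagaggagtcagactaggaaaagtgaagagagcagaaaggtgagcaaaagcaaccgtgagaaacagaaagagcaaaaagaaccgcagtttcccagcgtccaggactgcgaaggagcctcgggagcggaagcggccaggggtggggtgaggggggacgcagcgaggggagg
The Irx2 and Irx4 windows were GC-rich, with 68.4% and 68.8% G or C, and that of Irx3 held 56.0%, where the median of all 32851 promoter windows was 52.4%. GGCGCC, searched on both strands, occurred once in the Irx4 window, starting 89 bases before the start in the table, and was not found in the windows of Irx2 and Irx3. It occurred in 9.59% of all promoter windows. Neither ACANNTGT, a palindrome bound by Iroquois proteins (6.31% of all windows), nor AGATAA, which factors such as Gata3 bind (9.99%), was found in the 3 windows on either strand. A match or its lack describes these letters only.

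Bmp4 checked the labels. Its probe read 11.96 and 12.07 on the control arrays and 15.27 and 15.31 on the Bmp4 OE arrays, a 9.68-fold rise (limma, adjusted p = 0.00137). All 4 arrays shared the same median of 7.95, lower quartile of 6.79 and maximum of 16, because the deposited values had been quantile-normalised. Arrays of a group correlated more closely (r = 0.993 in both) than arrays of different groups (0.974 to 0.981). Genes that define the mandibular arch were read on all arrays, with 0 of 8 below the lower quartile in both groups. Of these 8, 3 rose and 2 fell, where 7.39% of all 16637 genes rose and 9.54% fell by their brightest probe: Hand1, Msx1 and Dlx3 rose by 1.94, 1.01 and 0.81 on the log2 scale, and Barx1 and Pitx1 had -3.15 and -1.28 (limma, adjusted p = 0.00137 and 0.00573). Dlx6, Dlx5 and Hand2 had -0.50, 0.11 and -0.02 in log2 units and did not pass. The part of these 8 genes in the Irx differences was not tested. The RNA is from bulk tissue, so fewer cells that express a gene and less of its RNA per cell cannot be told apart.

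The Iroquois genes of chromosome 13 passed the test as lower and those of chromosome 8 did not pass it, a split that depends on the cut-off. At an adjusted p of 0.05 in limma, 4 of 4 chromosome 13 probes, which read 3 genes, were lower, where 8.41% of all probes were lower. Of the 5 chromosome 8 probes, 0 passed in either direction, where 14.8% of all probes passed and 6.39% of all probes were higher. At an unadjusted p of 0.05 in limma, 3 of these 5 did pass, 1 for each of the 3 genes, where 33% of all probes did. The median log2 fold change was -0.73 over the chromosome 13 probes and 0.11 over the chromosome 8 probes, beside a median of 0 over all probes. Of the 5 chromosome 8 probes, 3 read Irx6. By the brightest probe of each gene, the medians were -0.94 for chromosome 13 and 0.37 for chromosome 8, whose 3 genes differed in sign. The difference between the clusters has no test of its own here. Control and Bmp4 OE values did not overlap at 7 of the 9 probes, which was the case for 60.2% of all probes.

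**Figure D1:**
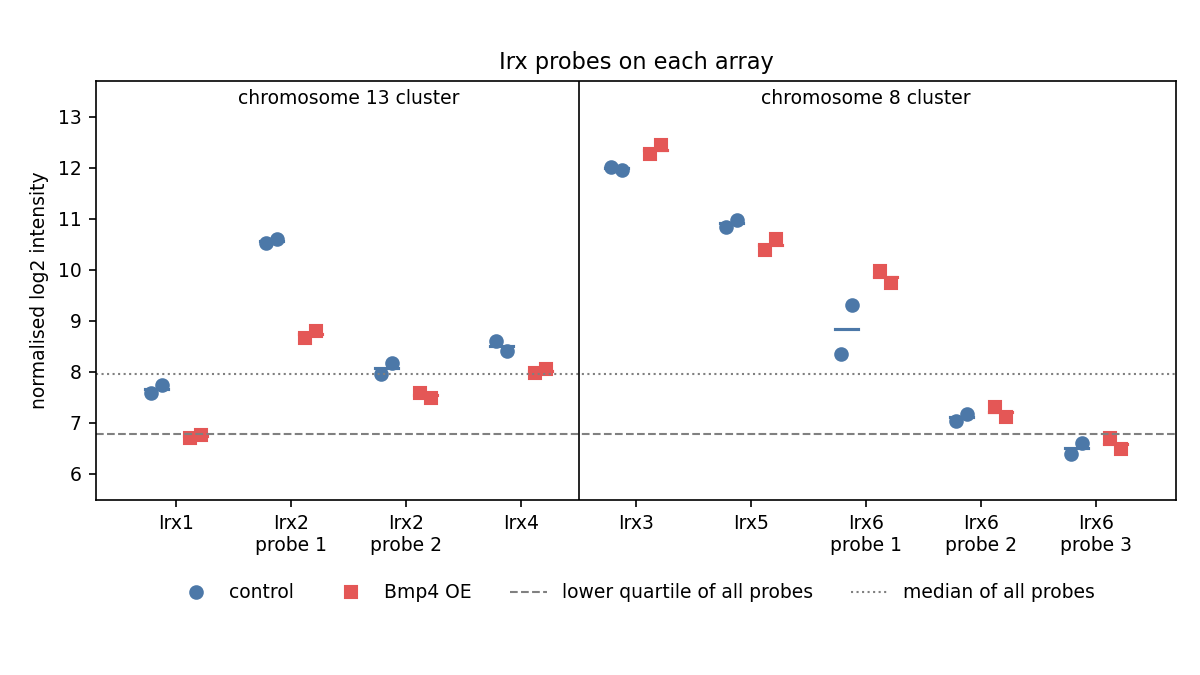
Normalised log2 intensity (vertical axis) of the 9 Irx probes on each of the 4 arrays, with control arrays as circles, Bmp4 OE arrays as squares and short lines at group means; probes of a gene are numbered from the brightest. The chromosome 13 probes lie lower on both Bmp4 OE arrays than on both controls, and Irx6 probes 2 and 3 overlap between groups.

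Irx2 had the largest fall of the family. This gene is expressed in surface ectoderm and neural tissue of the embryo, and its mouse mutants are viable. The brighter of its probes (mMC004686) read 10.53 and 10.61 on the control arrays and 8.67 and 8.80 on the Bmp4 OE arrays. The groups were thus far apart, with the arrays of each group close together. The means were 10.57 ± 0.06 and 8.74 ± 0.09 (SD, 2 arrays each), a 3.57-fold decrease with a log2 fold change of -1.84 ± 0.11 (SE; limma, adjusted p = 0.00267). In the control arrays this probe exceeded 81.4% of all probes, and in the Bmp4 OE arrays 62.0%. Only 0.174% of all probes had a lower log2 fold change. It was 1 of 2 Irx probes with at least a 2-fold change and an unadjusted p under 0.05 in limma. This threshold was met by 1.39% of all probes as lower and by 1.21% as higher. The series text gives the study's threshold as 2-fold with p under 0.05 and names no test, so limma stands in for it here.

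The other Irx2 probe (mMR030626) fell less. Its control values were 7.96 and 8.18 and its Bmp4 OE values 7.59 and 7.49, without overlap. This was a log2 difference of -0.53 ± 0.12 (SE; limma, adjusted p = 0.0447). This probe read near the median of all probes, with 52.0% of probes below its control mean. Both probes moved the same way and differed in size, and the size of the fall of Irx2 RNA is accordingly uncertain. Over the 3566 genes with several probes, the log2 fold changes of the brightest and next brightest probe correlated across genes with r = 0.413, as a description, since genes are not independent replicates.

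Irx1, a gene with roles in lung and tooth development, fell as well. Its probe (mMC009069) read 7.59 and 7.75 in the controls and 6.70 and 6.77 after Bmp4 induction. Both Bmp4 OE values lay below the lower quartile of all probes, and the controls were above it. The log2 fold change was -0.94 ± 0.11 (SE), a 1.91-fold decrease (limma, adjusted p = 0.0111), and 1.78% of all probes had a lower one. The Bmp4 OE mean was dim, above 23.5% of all probes, and whether this alters the size of the fold was not tested. With 50 added to the linear values, the log2 fold change was -0.70 (limma, adjusted p = 0.013).

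Irx4, known for its role in the identity of the cardiac ventricle, had the smallest fall that passed. Its probe (mMC023682) read 8.60 and 8.40 in controls and 7.97 and 8.05 in Bmp4 OE samples. Both Bmp4 OE values were lower than both controls. Its log2 fold change of -0.49 ± 0.12 (SE; limma, adjusted p = 0.0490), a 1.40-fold decrease, lay just inside the threshold. Of all probes, 9.06% had a lower value.

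The chromosome 13 calls rested on all 4 arrays. With control replicate 1, control replicate 2, Bmp4 OE replicate 1 or Bmp4 OE replicate 2 left out, 1 residual degree of freedom remained, 0 of 29922 probes passed the adjusted threshold in limma, and between 6020 and 7947 had an unadjusted p under 0.05. The log2 fold change of the brighter Irx2 probe then ranged from -1.90 to -1.77, that of the other from -0.64 to -0.42, that of Irx1 from -1.02 to -0.86 and that of Irx4 from -0.59 to -0.39. Their directions were kept in each case, with unadjusted p-values in limma of 0.000539 to 0.000852, 0.0124 to 0.0536, 0.00300 to 0.00717 and 0.0139 to 0.0553.

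On chromosome 8, Irx3 and Irx5 had differences of opposite sign, and neither passed. Irx3 acts with Irx5 in the patterning of the limb skeleton and the heart, and in the neural tube it marks an intermediate domain. The Irx3 probe (mMC009325) read 12.02 and 11.96 in controls and 12.27 and 12.44 in Bmp4 OE samples, above 91.4% of all probes already in the controls. Both Bmp4 OE values were higher than both controls. The log2 fold change was 0.37, with a 95% confidence interval from 0.08 to 0.65 (limma, adjusted p = 0.0863).

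Irx5, which also controls the repolarisation gradient of the ventricle wall and the differentiation of retinal bipolar cells, read lower. Its probe (mMC007671) gave 10.84 and 10.98 in controls and 10.38 and 10.60 in Bmp4 OE samples. The values of the groups did not overlap. Its log2 difference was -0.42, with a 95% confidence interval from -0.74 to -0.11 (limma, adjusted p = 0.0809). With an intensity trend and robust variances in limma, Irx3 and Irx5 passed, with adjusted p-values of 0.0435 and 0.0471.

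Irx6, a gene of retinal bipolar cell subtypes, was read differently by its 3 probes. The brightest (mMR031143) gave 8.36 and 9.31 in controls and 9.98 and 9.75 in Bmp4 OE samples. The control arrays differed from each other by more than the nearest arrays of the groups did. The means differed by 1.03 ± 0.31 log2 units (SE), with a 95% confidence interval from 0.26 to 1.80 (limma, adjusted p = 0.0802). It met the study's threshold, at an unadjusted p of 0.0174 in limma, and passed the adjusted one with an intensity trend and robust variances (adjusted p = 0.0422). Without control replicate 1 the log2 fold change was 0.56 and without control replicate 2 it was 1.51.

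The other Irx6 probes showed little difference. Probe mMC004436 read 7.04 and 7.18 in controls and 7.32 and 7.12 in Bmp4 OE samples, with a log2 fold change of 0.11 and a 95% confidence interval from -0.20 to 0.42. Probe mMC018627 read 6.40 and 6.60 in controls and 6.70 and 6.48 in Bmp4 OE samples, below the lower quartile in both groups, with a log2 fold change of 0.09 and an interval from -0.24 to 0.42. Their adjusted p-values in limma were 0.587 and 0.689, and the groups overlapped at both. The intervals of these probes leave room for changes of up to 0.42 in log2 units. The stretch of transcript that each probe reads is not known here, so the 3 readings cannot be reconciled.

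**Figure D2:**
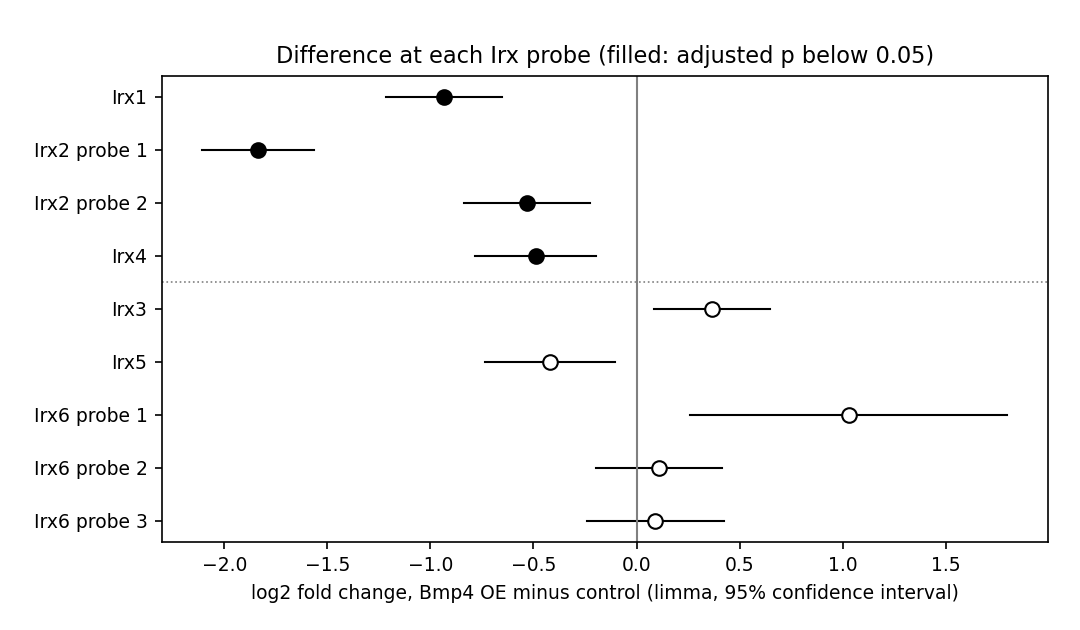
Log2 fold change of Bmp4 OE minus control at each Irx probe (horizontal axis, points) with the 95% confidence interval of the limma fit (lines), with chromosome 13 genes above the dotted line and chromosome 8 genes below. Filled points passed an adjusted p of 0.05: the 4 chromosome 13 probes are filled, from -1.84 to -0.49, and the 5 chromosome 8 probes are open.

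Differences between members within each array are given as a description. The difference between the Irx3 and Irx5 probes, in log2 units, was 1.18 and 0.98 on the control arrays and 1.89 and 1.84 on the Bmp4 OE arrays, a shift of 0.79. Between the Irx3 probe and the brighter Irx2 probe it was 1.49 and 1.35 in controls and 3.60 and 3.64 after induction, a shift of 2.20. Within the chromosome 13 cluster, Irx1 minus Irx2 went from -2.94 and -2.86 to -1.97 and -2.03, and Irx4 minus Irx2 from -1.93 and -2.21 to -0.70 and -0.75. These shifts follow from the differences of the single probes given above and add no separate result. No test of these shifts was run, and they compare changes rather than the amounts of the transcripts.

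**Figure D3:**
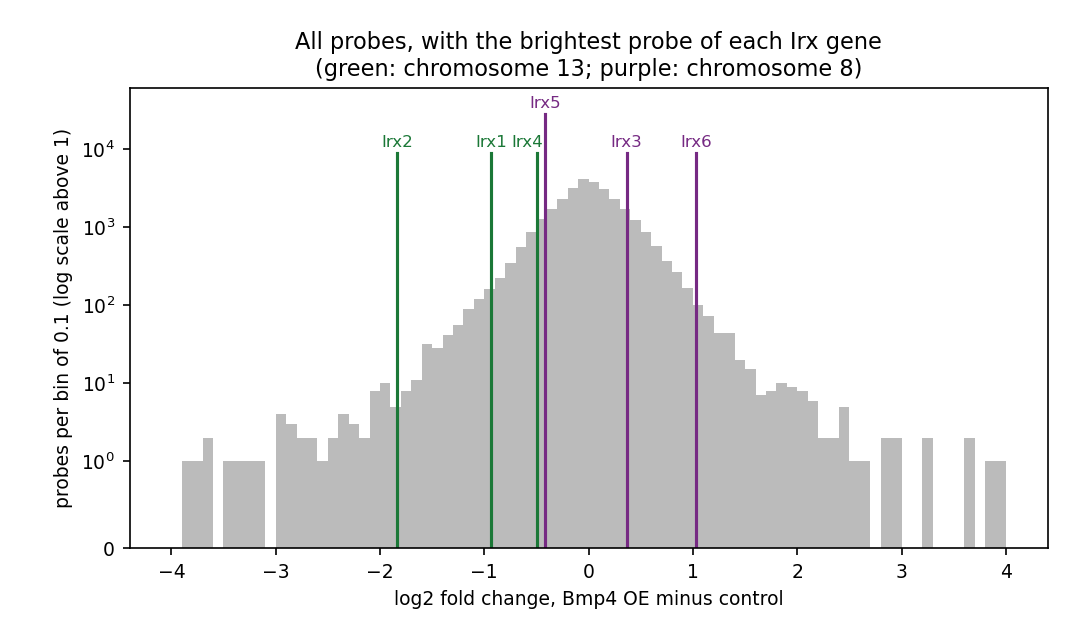
Number of probes (vertical axis, log scale above 1) by log2 fold change of Bmp4 OE minus control (horizontal axis, bins of 0.1) for all 29922 probes, with lines at the brightest probe of each Irx gene. Irx2 at -1.84 lies in the thin lower tail, Irx1 at -0.94 and Irx6 at 1.03 on the flanks, and Irx4, Irx5 and Irx3 within the bulk.

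Of 20 genes beside the clusters, 3 rose, 2 fell and 15 did not pass, where 16.9% of all genes passed in either direction. The neighbours were the 5 nearest protein-coding genes with a probe on each side of each cluster, in the order of the GRCm38.p6 RefSeq table, and 0 such genes lay between Irx genes. Of 10 neighbours of the chromosome 13 cluster, 1 rose, 1 fell and 8 did not pass, with a median log2 fold change of 0.14, beside 7.39% and 9.54% of all genes that rose and fell. Med10, a Mediator subunit on the Irx1 side, rose by 0.61 (adjusted p = 0.0277), and Lpcat1, a phospholipid acyltransferase on the Irx4 side, had a log2 fold change of -0.60 (adjusted p = 0.0267). The nearest neighbours with a probe, Adamts16, a secreted metalloprotease, and Mrpl36, a mitochondrial ribosomal protein, differed by -0.20 and 0.14 in log2 units, and neither passed. Among the others, Tert, the telomerase catalytic subunit, had 0.89 (adjusted p = 0.0557), Srd5a1, a steroid reductase, had -0.54 and Clptm1l had 0.18, and none of these passed in limma.

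Around the chromosome 8 cluster, 2 of 10 neighbours rose, 1 fell and 7 did not pass, where 7.39% of all genes rose and 9.54% fell. The median log2 fold change of these neighbours was -0.20. Mmp2, a matrix metalloprotease gene and the nearest with a probe on the Irx6 side, rose from 12.76 and 12.58 to 13.32 and 13.30, by 0.64 on the log2 scale (limma, adjusted p = 0.0247). Capns2, a calpain small subunit, had a log2 fold change of 0.63 (adjusted p = 0.0278), and Ces1c, a carboxylesterase, had -0.82 (adjusted p = 0.0207). Both Bmp4 OE values of Ces1c, 6.51 and 6.58, lay below the lower quartile of all probes. Fto, the RNA demethylase gene whose introns are known to hold enhancers that contact Irx3, read 11.85 and 11.73 in controls and 11.71 and 11.60 in Bmp4 OE samples, with a log2 fold change of -0.14 (adjusted p = 0.449). Slc6a2, Chd9 and Rbl2, which encode a noradrenaline transporter, a chromatin remodeller and a relative of the retinoblastoma protein, had -0.33, -0.34 and -0.32, and none of these passed. Rpgrip1l, a gene of the ciliary transition zone, had -0.23 and did not pass.

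**Figure D4:**
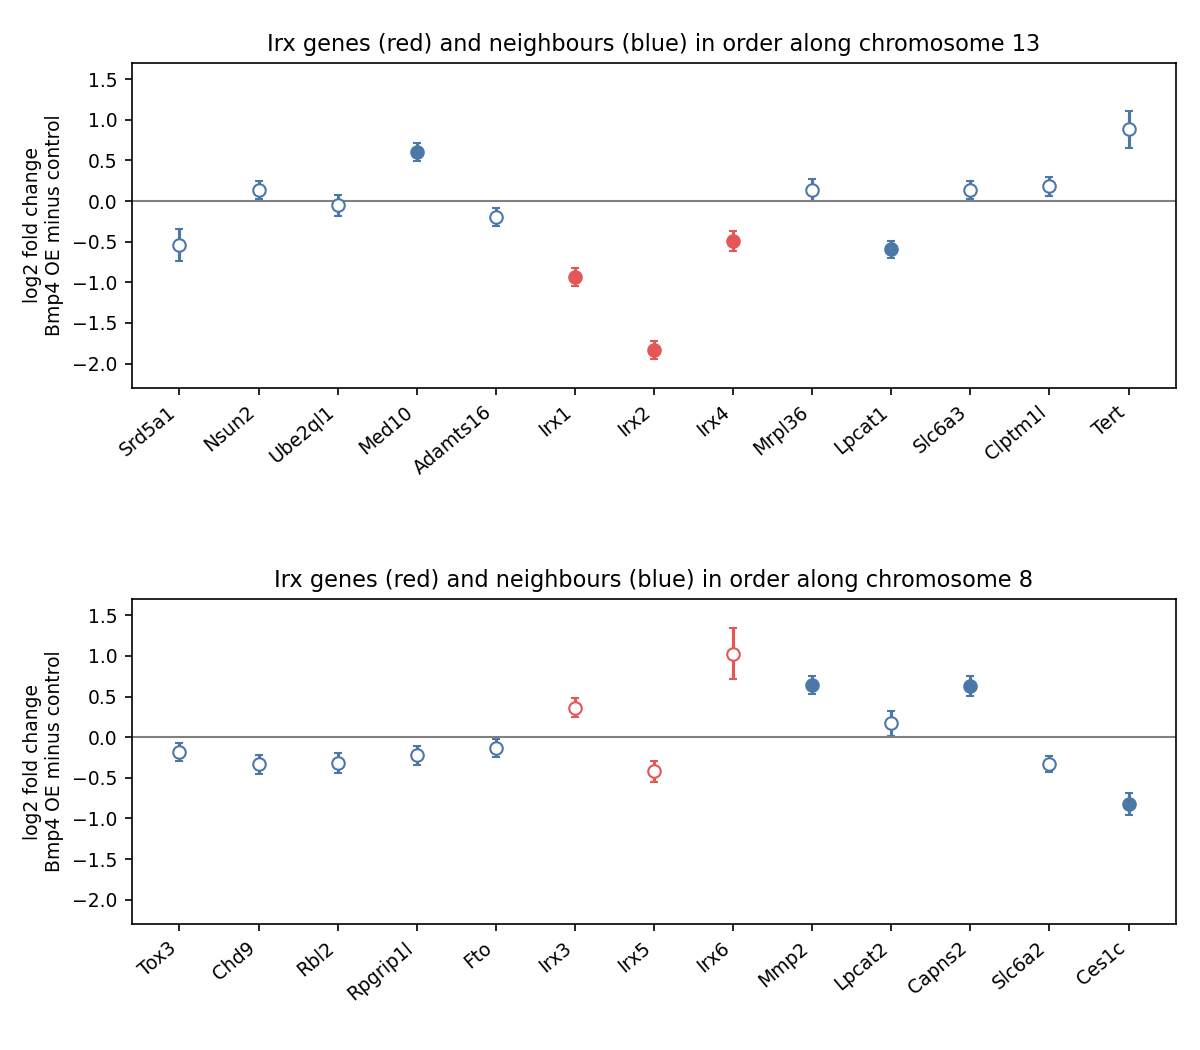
Log2 fold change of Bmp4 OE minus control (vertical axis, with the standard error of the limma fit as bars) for Irx genes (red) and their neighbours with a probe (blue), in order along each chromosome and not to distance; filled points passed an adjusted p of 0.05. The 3 Irx genes of chromosome 13 are filled and lie below 0, while Adamts16 at -0.20 and Mrpl36 at 0.14 beside them are open.

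The other TALE homeobox genes moved both ways. Of 12 listed genes, 11 were measured, of which 3 rose, 2 fell and 6 did not pass, where 16.9% of all genes passed in either direction. Their median difference was 0.04 in log2 units. Mkx, the mohawk gene of tendon and the closest relative of the Iroquois genes, had the largest change of this list. It read 9.68 and 9.56 in controls and 7.85 and 8.11 in Bmp4 OE samples, a log2 difference of -1.64 (adjusted p = 0.00477 in limma), beside -1.84 at the brighter Irx2 probe. Tgif2, a repressor of TGF-beta responses, had -0.67 (adjusted p = 0.0262).

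The rises were in cofactor genes whose proteins bind DNA with other homeodomain proteins. Meis2, needed in the cranial neural crest, read 11.21 and 11.23 in controls and 12.15 and 12.34 in Bmp4 OE samples, a log2 difference of 1.03 (adjusted p = 0.00950 in limma). Meis1 and Pbx3 rose by 0.58 and 0.50 on the log2 scale. Differences that missed the threshold were 0.37 for Pbx4, -0.46 for Pbx2, 0.24 for Tgif1 and -0.09 for Meis3, in log2 units.

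Genes tied to Iroquois proteins in vertebrates were mixed too. All 10 listed genes were measured: 2 rose, 1 fell and the other 7 failed the threshold, where 16.9% of all genes passed in either direction. The median difference was 0.20 in log2 units. Gata3, a zinc finger factor whose protein is reported to act with IRX5, rose from 7.78 and 7.57 to 11.49 and 11.14, by 3.64 on the log2 scale (limma, adjusted p = 0.00161). Trps1, a GATA-type repressor reported as another IRX5 partner, read 11.56 and 11.66 in controls and 11.48 and 11.31 in Bmp4 OE samples and did not pass (adjusted p = 0.259). Cxcl12, the chemokine gene that Irx5 represses in Xenopus branchial arches, fell from 11.43 and 11.51 to 10.02 and 9.77, or by -1.58 in log2 units (adjusted p = 0.00478 in limma). Its receptor gene Cxcr4 had 0.29 and did not pass.

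Among genes of the limb and heart circuits of Irx3 and Irx5, Shh, the Hedgehog ligand, rose by 0.78 on the log2 scale (limma, adjusted p = 0.0240). Gli3, its transcriptional effector, had a log2 fold change of 0.46 (adjusted p = 0.154), and Gja5, a connexin of the cardiac conduction system, had 0.20 (adjusted p = 0.267). Gja1, the connexin 43 gene, read 16 on all 4 arrays, at the top of the scale, where no change can be measured; it was named after its values were seen.

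**Figure D5:**
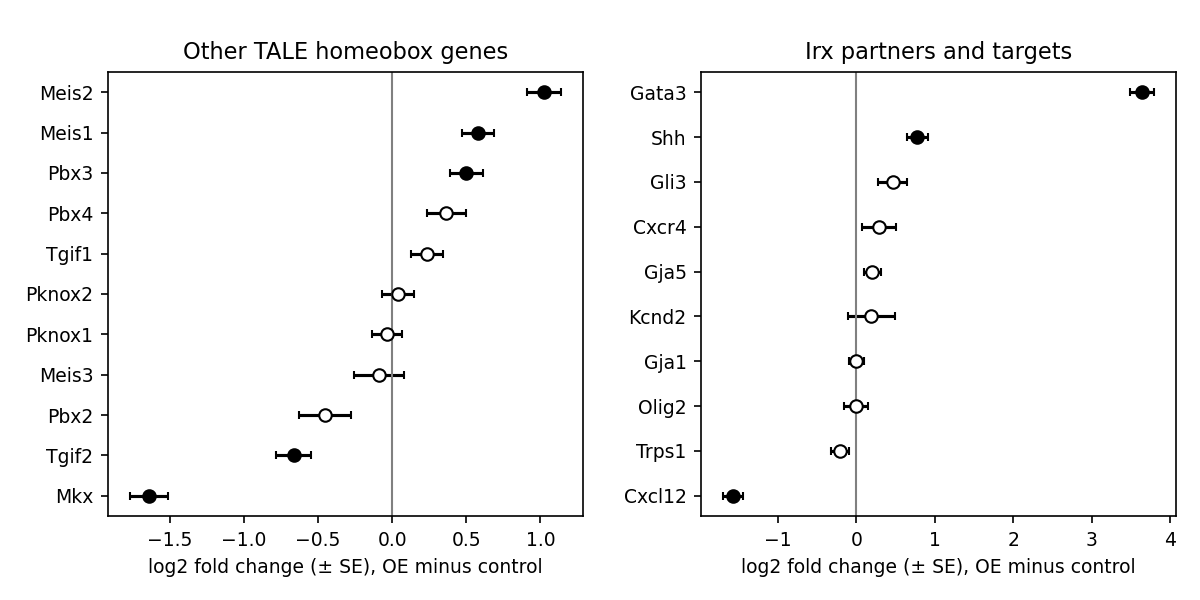
Log2 fold change of Bmp4 OE minus control (horizontal axis) with the standard error of the limma fit for the 11 measured TALE genes outside the Iroquois family and for the 10 Irx partner and target genes; filled points passed an adjusted p of 0.05. Mkx at -1.64 and Meis2 at 1.03 bound the TALE list, and Gata3 at 3.64 and Cxcl12 at -1.58 bound the partner list.

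Markers of tissues in which Iroquois genes are known were read on the same arrays. Of 10 epithelial markers, 9 were measured, of which 4 rose, 2 fell and 3 did not pass, beside the 7.39% of all genes that rose and 9.54% that fell. Their mean log2 level was 10.88 to 10.95 in controls and 11.14 to 11.24 in Bmp4 OE samples. The 4 that rose were the simple keratin genes Krt8 and Krt18, by 1.23 and 1.20 on the log2 scale, and Cdh1 and Cldn6, by 0.92 and 0.63. The basal keratin genes Krt14 and Krt5 had -0.79 and -0.46 (limma, adjusted p = 0.0142 and 0.0496). Epcam, Trp63 and Esrp1 had -0.41, 0.21 and -0.06 and did not pass. Of 8 measured heart markers, 1 rose, Myl4, and 7 did not pass, with mean levels of 7.48 on both controls and 7.66 to 7.70 in Bmp4 OE samples. Of the 8, Nkx2-5, Myl7, Myh6 and Tnnt2 had group means under the lower quartile of all probes throughout, whereas Myl4, Actn2, Tnni1 and Myh7 were above it, at control means of 9.71, 9.56, 7.53 and 7.34. Among 7 neural markers, Dcx rose, Sox2 fell and 5 did not pass, and the mean level was 9.94 to 9.98 in controls and 10.25 to 10.30 in Bmp4 OE samples. The part of these tissues in the Irx differences was not tested.

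By the root mean square difference of mean-centred log2 values over the 4 arrays, the genes most like Irx2 were Kcnip4 (0.0342), Prdx2 (0.0517) and Spp1 (0.0536), and 31 genes lay within 0.15 of it. Nearest to Irx1 were Stil, Gtf3a and Sord, at 0.0269 to 0.0296, among 422 genes within 0.15. The profiles of Irx4, Irx3 and Irx5 were common ones, with 2556, 2982 and 2565 genes within 0.15, led by Xylt2, Mbd4 and Qpctl for Irx4, Ebpl, Foxb1 and Fabp12 for Irx3, and Ptgfrn, Acot6 and Ranbp3 for Irx5. The brightest Irx6 probe, with its split controls, was nearest to Faah, Qrfpr and Kl, at 0.0439 to 0.0694, and 33 genes lay within 0.15. With 4 arrays in 2 groups, this likeness rests mainly on the size of each difference and describes these arrays only.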

How the data were processed

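Total RNA was amplified, coupled to Cy5 and hybridised as 1 sample per array, per the labels' protocols. The deposited values are 1 log2 intensity per probe and array; base 2 was inferred from their maximum of 16. The sorted columns are identical, so the authors' values had been quantile-normalised. The sources used here name no scanner, background correction, probe filter or software. The number of arrays limits the precision.

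Probes were named from the platform annotation (21020 with 1 symbol, 0 with several, 8902 with none), and 3410 symbols were updated through the GRCm38.p6 RefSeq gene table. List genes were read by their brightest probe. All probes were fitted with limma 3.58.1 in R 4.3.3 (lmFit, eBayes, two-sided) with Benjamini-Hochberg adjustment over 29922 probes, no filter and no covariate. In 20 simulated runs of this comparison with 29922 probes, of which 200 changed, it recovered 94.1% of changes of 2 log2 units and 36.9% of changes of 1, and 5.59% of calls were unchanged probes. In the data 4427 probes passed, far more than the 200 changed in each run. The adjusted threshold was therefore less strict in the data, and these recovery rates do not carry over to it.

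Named genes were every Irx probe, Bmp4, list members that passed and up to 4 others with the smallest p, and the 3 genes most like each Irx gene. The members and lists were chosen with earlier results of these data known. Further list members and markers are named where they bear on a result, after their values were seen. Alternatives were another scaling, a constant of 50 added, filters on dim probes, a variance trend, a replicate block and leaving out each array.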

Additional observations from a re-analysis of the deposited data

How the results depend on the processing

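The 9 Irx probes kept their sign under every alternative run that held them, except Irx6 probe mMC018627, whose log2 fold change was -0.01 without control replicate 1 and -0.02 without Bmp4 OE replicate 1, and reached 0.20 without Bmp4 OE replicate 2. The number of Irx probes past the adjusted threshold was 4 in the reported limma fit. With an intensity trend and robust variances it was 7, and Irx3, Irx5 and the brightest Irx6 probe (adjusted p = 0.0422 in limma) also passed. In that fit 2698 of all 29922 probes rose and 3084 fell. When probes below the median were removed, 2 of the 5 Irx probes left passed, where 1856 of 14962 probes rose and 2285 fell. With housekeeping scaling, added constant or lower quartile filter, 4 Irx probes passed. In these fits 1889, 2047 and 1938 probes rose, and 3217, 2692 and 2545 fell. The number past the study's threshold, 2, was 1 with housekeeping scaling and with 50 added, where the brightest Irx6 probe had log2 fold changes of 0.99 and 0.95, and 1 to 2 with an array left out. With the replicate number as a block, 1 residual degree of freedom remained, and 0 Irx probes, 0 probes overall in either direction and 0 members of the TALE, partner and neighbour lists passed in limma. The smallest adjusted p was then 0.0745, with 8724 probes and 7 of 9 Irx probes at an unadjusted p under 0.05. Deviations of same-numbered arrays from their group means correlated with r = -0.071 over all probes. With 2 arrays per group this value cannot tell whether the numbers pair the arrays. Leaving out each array in turn gave 0 calls at the adjusted threshold in limma for each of the counts named, with 4 to 5 Irx probes at an unadjusted p under 0.05. Of the neighbours, 1 in place of 2 fell without probes below the median, a filter that removed the Ces1c probe. With housekeeping scaling and with the intensity trend, 4 neighbours in place of 3 rose. Housekeeping scaling moved the median of all probes by -0.04 and used 9 of 14 listed genes. Quantile normalisation changed no value. Dim probes, such as Irx1 and 2 of the Irx6 probes, limit what can be measured.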
